A study of Mus musculus with 250 samples.

Results

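The genes described here are 10 genes by which resident macrophages of tissues are recognised: Clec4f, Vsig4, Cd5l, Timd4, Marco, Msr1, Cd163, Mrc1, Spic and Adgre1. They were taken from a list of names, with no threshold on their measured values, and each was read from the probe sets that carry its single symbol. All 10 were measured, among 18193 genes in all, by 15 probe sets.

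RNA came from female mice of the FVB strain and was hybridised to 250 whole-genome Affymetrix mouse arrays. Tumor-bearing animals carried both MMTV-rtTA and TetO-NeuNT, which together give a doxycycline-inducible form of activated Her2/Neu that the mammary MMTV promoter directs to the breast. Control mice were littermates that carried TetO-NeuNT only, matched to a tumor-bearing mouse by age and cage. Both groups therefore carried TetO-NeuNT. From the age of 8 weeks both also received doxycycline at 2 mg/mL in water that held 5% sucrose. Breast, liver, spleen, thymus and blood cells without plasma were taken when the tumor reached 1 cm, from 25 tumor-bearing and 25 control mice per tissue. The breast samples of tumor-bearing mice held the tumor. Values below are log2 of the deposited intensity, and a change is tumor-bearing minus matched control, as mean ± SE over pairs. A gene "rose" or "fell" where limma gave an adjusted p under 0.05 over all genes of that tissue.

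Resident macrophages settle in an organ and clear particles, dying cells and old red cells from it. The liver's are the Kupffer cells, which line the sinusoids and face the blood; the spleen holds red pulp macrophages, which recycle iron, and macrophages of the marginal zone, which lie around the B cell follicles. Clec4f is a lectin of mouse Kupffer cells, and Vsig4 is a complement receptor that binds particles coated with C3 fragments. Cd5l is a secreted protein of macrophages, and Timd4 is a receptor for phosphatidylserine on dying cells. Marco and Msr1 are class A scavenger receptors, Cd163 takes up haemoglobin bound to haptoglobin, and Mrc1 is the mannose receptor, also made by some endothelial cells. Spic is a transcription factor of red pulp macrophages, and Adgre1 encodes F4/80, the classical surface antigen of mouse macrophages.

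The start regions of 5 of the genes are shown. Timd4, Marco and Spic were among the genes that fell in spleen once the 3 pairs described below were left out. Clec4f and Vsig4 were among those highest in control liver. Adgre1, which also fell in spleen, has no entry, and Cd5l, also highest in liver, has an entry that is not printed. The sequences are RefSeq's, build GRCm38.p6, 250 bases upstream of the start, 5′ to 3′ on the gene's own strand. Timd4 lies at chr11:46810549-46810798 (plus strand), Marco at chr1:120505025-120505274 (minus strand), Spic at chr10:88683024-88683273 (minus strand), Clec4f at chr6:83656117-83656366 (minus strand) and Vsig4 at chrX:96293439-96293688 (minus strand). Capitals mark the motifs searched on both strands.
Timd4: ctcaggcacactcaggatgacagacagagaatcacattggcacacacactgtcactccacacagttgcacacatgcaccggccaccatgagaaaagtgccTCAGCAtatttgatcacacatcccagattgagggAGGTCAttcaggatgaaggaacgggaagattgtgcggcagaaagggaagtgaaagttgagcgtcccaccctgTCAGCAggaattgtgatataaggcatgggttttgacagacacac
Marco: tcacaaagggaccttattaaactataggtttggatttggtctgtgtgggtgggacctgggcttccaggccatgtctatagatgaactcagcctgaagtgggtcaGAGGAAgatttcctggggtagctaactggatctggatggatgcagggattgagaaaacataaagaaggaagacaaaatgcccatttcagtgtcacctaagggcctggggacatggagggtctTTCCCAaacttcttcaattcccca
Spic: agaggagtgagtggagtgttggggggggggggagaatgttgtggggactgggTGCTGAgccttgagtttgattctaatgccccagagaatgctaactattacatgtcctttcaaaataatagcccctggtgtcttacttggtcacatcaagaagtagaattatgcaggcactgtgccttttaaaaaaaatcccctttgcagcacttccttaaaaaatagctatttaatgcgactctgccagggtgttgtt
Clec4f: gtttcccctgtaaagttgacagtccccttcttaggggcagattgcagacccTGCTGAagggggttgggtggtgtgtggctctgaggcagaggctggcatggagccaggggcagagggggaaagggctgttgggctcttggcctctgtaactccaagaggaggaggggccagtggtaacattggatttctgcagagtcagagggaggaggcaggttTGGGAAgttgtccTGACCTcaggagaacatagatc
Vsig4: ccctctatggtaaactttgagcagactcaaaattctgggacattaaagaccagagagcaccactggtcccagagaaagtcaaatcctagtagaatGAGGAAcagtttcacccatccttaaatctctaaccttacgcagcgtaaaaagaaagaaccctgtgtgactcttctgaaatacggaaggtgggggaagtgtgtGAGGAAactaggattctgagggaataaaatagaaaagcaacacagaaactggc
The motifs were GAGGAA (an ETS core of the kind bound by PU.1 and Spi-C), TGCTGA (the core of Maf sites), AGGTCA (the repeat unit of nuclear receptor sites) and TGGGAA (the RBPJ core). On either strand they occur in 23.3%, 16.1%, 14% and 21.6% of 32851 RefSeq windows of the same length. Vsig4 holds GAGGAA at 155 and 53 bases before the start, Marco holds it at 146, and Timd4 holds TGCTGA, read on the other strand, at 150 and 44. No printed window has 2 motifs that overlap. GAGGAA was found in 4, TGCTGA in 4, AGGTCA in 2 and TGGGAA in 2 of the 8 genes with an entry. These are matches of letters and nothing was measured on binding.

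A few arrays did not resemble their own group. An array was said to stand apart where its median correlation with the arrays of its group lay more than 5 median absolute deviations under the tissue's median, which held for 4 spleen arrays, 5 liver arrays and 3 arrays in each of the other tissues. Leaving out their pairs left 20 pairs in liver and 22 in every other tissue. Of the 4 in spleen, 3 lay nearer the median profile of another tissue: the control arrays of pairs 15 and 20 lay nearest breast, with Cd79b (a B cell receptor chain) at 6.11 and 5.74 against a tissue maximum of 13.47, and the tumor-bearing array of pair 15 lay nearest thymus, with the thymocyte gene Rag1 at 12.63. In thymus 2 control arrays lay nearer breast or spleen. The counts of the 10 genes in each tissue are therefore given over all 25 pairs and again without these pairs, and other values name the pairs they rest on.

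In control mice some of the genes marked the organs they are known for. Values on the deposited scale look normalized within each tissue, so levels across tissues were also set on a common quantile scale, and an order is stated only where both scales gave it. Clec4f, Vsig4 and Cd5l were highest in liver, at 11.21 ± 0.30, 11.46 ± 0.30 and 11.36 ± 0.37 (SD, n = 20 without the arrays that stand apart). For Clec4f the other tissues lay between 4.59 and 5.54, and for Vsig4 between 5.39 and 7.44 on the deposited scale. On the common quantile scale the gap was smaller, with blood, the nearest tissue, at 7.32 for Clec4f against 10.8 in liver, and at 9.36 for Vsig4 against 11.01 in liver. Marco, Timd4 and Spic were highest in spleen, at 11.68 ± 0.25, 11.03 ± 0.24 and 10.93 ± 0.30 (SD, n = 22), and Cd163 in breast, at 8.98 ± 0.61. For Msr1, Mrc1 and Adgre1 the highest tissue was not the same on both scales. In blood Cd163 was at the floor of the scale in 41 of 50 arrays. Breast controls differed widely from each other in Marco (7.41 ± 2.54) and Timd4 (8.55 ± 1.29).

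**Figure D1:**
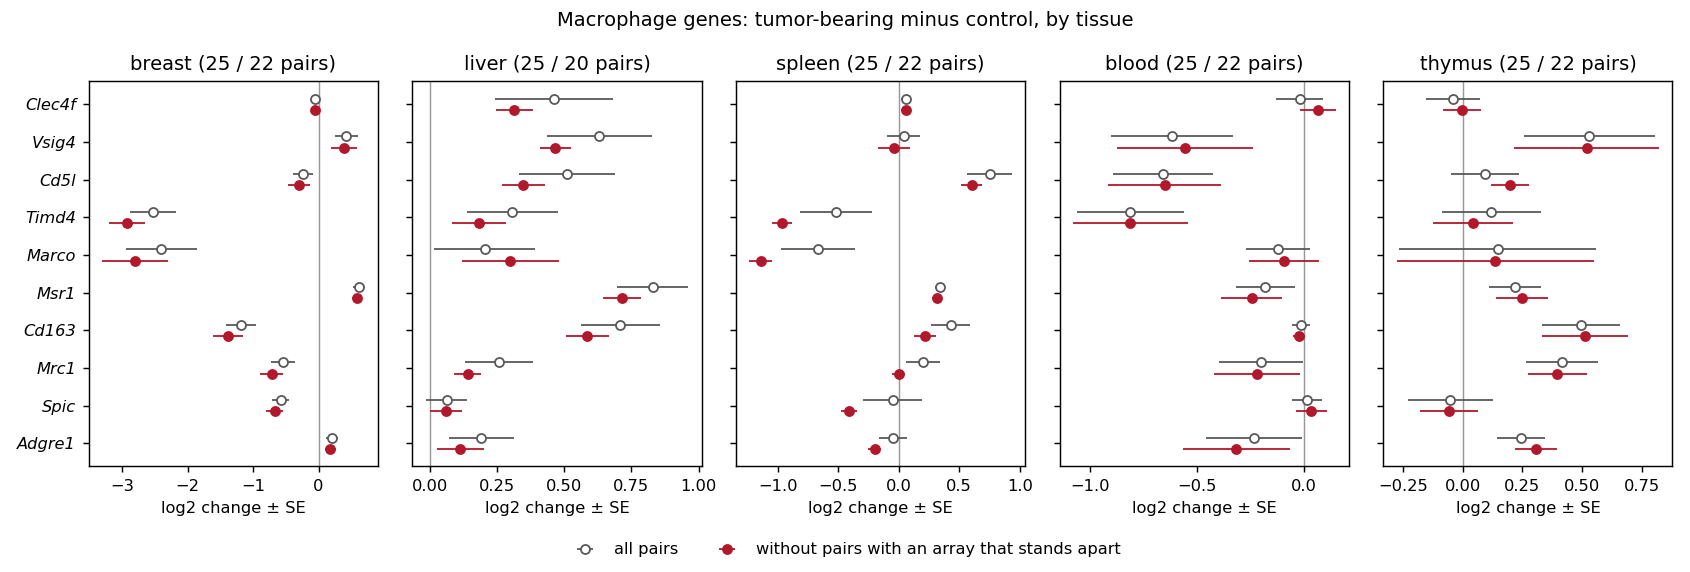
Mean log2 change (tumor-bearing minus control, horizontal axis, a scale of its own in each panel) of the 10 macrophage genes in 5 tissues, with bars of 1 SE. Open points use all 25 pairs and filled points leave out pairs with an array that stands apart; Timd4 and Marco lie far below 0 in breast, and below 0 with short bars in spleen once 3 pairs are left out, while the points of liver lie above 0.

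In spleen the genes moved in opposite directions. Over all 25 pairs Cd5l, Msr1 and Cd163 rose and none fell, against 22.4% of all genes that rose and 18.3% that fell (40.7% in either direction). Without the 3 pairs of arrays that stand apart the same 3 rose, and Timd4, Marco, Spic and Adgre1 fell, against 28.9% and 26.4% of all genes. The 7 of 10 called are not far from the 55.3% called among all genes. In whole tissue, fewer cells of a type and less RNA per cell cannot be told apart.

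Timd4, the phosphatidylserine receptor, ranged from 10.43 to 11.47 (median 11.07) in the 22 controls and from 9.46 to 10.77 (median 9.97) in the tumor-bearing mice. Of the tumor-bearing spleens, 20 of 22 lay below the lowest control, and in all 22 pairs the tumor-bearing mouse was lower. The change was -0.96 ± 0.08, or 1.95-fold lower (limma adjusted p = 4.97e-10). Over all 25 pairs it was -0.52 ± 0.30 (adjusted p = 0.179), lower in 23 of 25. The exceptions were pairs 15 and 20, at 3.99 and 4.96, whose control spleen arrays lay nearest breast.

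Marco, the scavenger receptor of marginal zone macrophages, followed the same course. Controls spanned 10.95 to 11.97 (median 11.74) and tumor-bearing spleens 9.65 to 11.20 (median 10.61), with 17 of 22 below the lowest control. It fell by 1.14 ± 0.10 in the 22 pairs (2.2-fold lower, adjusted p = 3.16e-10, lower in 22 of 22), while over all 25 pairs the change was -0.67 ± 0.31 (adjusted p = 0.0869). Its other probe set also passed over all 25 pairs, at -0.91 ± 0.28 (adjusted p = 0.0103 over all probe sets).

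Spic, the red pulp transcription factor, went from a control median of 10.91 (10.14 to 11.51) to 10.48 (10.01 to 11.28), and the groups overlapped in all but 1 tumor-bearing spleen. It fell by 0.41 ± 0.07 (adjusted p = 9.74e-06, lower in 20 of 22), against -0.05 ± 0.24 over all 25 pairs (adjusted p = 0.892). Adgre1 overlapped throughout, with medians of 9.67 and 9.52, and fell by 0.20 ± 0.05 (adjusted p = 0.00161, lower in 19 of 22), against -0.05 ± 0.12 over all 25 (adjusted p = 0.767). Both Spic probe sets are of the kinds that can cross-hybridise, so Spic values carry that limit. The second one fell by 0.49 ± 0.05 in the 22 pairs.

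Cd5l, the secreted macrophage protein, went the other way. Control spleens ranged from 8.73 to 10.67 (median 10.18) and tumor-bearing spleens from 10.30 to 11.11 (median 10.71), with 13 of 22 above the highest control. It rose by 0.60 ± 0.09 in the 22 pairs (1.52-fold, adjusted p = 1.79e-06, higher in 21 of 22) and by 0.75 ± 0.18 over all 25 (adjusted p = 0.00153). Msr1 rose in every pair, by 0.31 ± 0.04 in the 22 (adjusted p = 1.49e-07) and 0.34 ± 0.04 in the 25 (adjusted p = 1.57e-07), though its ranges of 6.67 to 7.54 and 6.93 to 7.68 overlapped. Cd163, the haemoglobin receptor, rose by 0.22 ± 0.09 (adjusted p = 0.0393, higher in 15 of 22) and by 0.43 ± 0.16 over all 25 (adjusted p = 0.0338). It passed in neither set of sample numbers described below (0.19 and 0.58 over all their pairs, adjusted p = 0.31 and 0.0838, and 0.24 in the second without its 3 pairs, adjusted p = 0.066). Mrc1, Vsig4 and Clec4f had changes of -0.00, -0.04 and 0.06 in the 22 pairs and 0.20, 0.04 and 0.06 over all 25, none past the test.

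**Figure D2:**
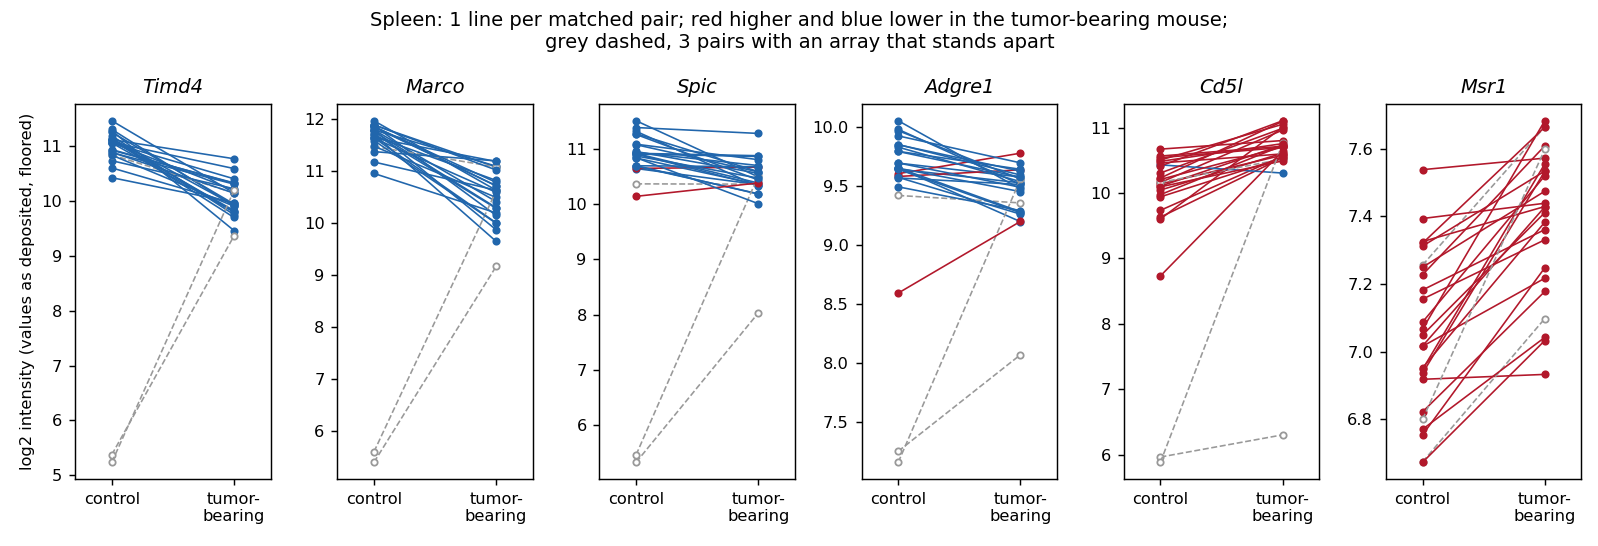
Log2 intensity of 6 macrophage genes in spleen, with 1 line for each of the 25 matched pairs from control to tumor-bearing mouse. Solid lines slope down in every pair for Timd4 and Marco and up in every pair for Msr1; the dashed lines are the 3 pairs with an array that stands apart, of which 2 start near 5 to 6 for Timd4, Marco and Spic.

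The sample numbers in the labels start in 2 ways, which divides the pairs into a set of 10 and a set of 15; what the numbers stand for is not said. The falls of Timd4, Marco, Spic and Adgre1 were present in both once 3 pairs were left out. In the first set, which holds no spleen array that stands apart, Timd4, Marco, Spic and Adgre1 changed by -1.11, -1.22, -0.28 and -0.20. In the second set without 3 pairs they changed by -0.85, -1.07, -0.52 and -0.20, and all 8 of these values passed the test. With all 15 pairs of the second set the changes were -0.13, -0.30, 0.10 and 0.05 and none passed. The share of all genes called within a set of numbers is not given here.

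Markers of other cells moved with these genes in spleen. Without the 3 pairs, B cell markers fell in 5 of 5 measured genes (summed intensity 24110 to 37877 in controls and 12083 to 27978 in tumor-bearing spleens) and T cell markers in 6 of 6 (6264 to 11199 and 3418 to 6245). With all 25 pairs 1 of 5 and 1 of 6 fell. Of all genes 26.4% fell without the 3 pairs and 18.3% over all 25. Neutrophil markers rose in 13 of 13 (14179 to 67006 and 82121 to 184720; 13 also over all 25), and erythroid markers rose in 6 of 6 (11222 to 44644 and 36484 to 45618; 5 over all 25). None of the measured markers was at the floor in all spleen arrays. Over pairs, Marco followed the mean of the B cell markers (r = 0.831, permutation p = 1e-05, adjusted p = 0.000292; rho = 0.826, p = 2e-05, adjusted p = 0.0007; 22 pairs). The r was 0.777 without the 2 pairs farthest out, and 0.887 and 0.866 within the 2 sets of numbers. For Timd4 the r was 0.721 (p = 0.00014, adjusted p = 0.00204; rho = 0.737, p = 0.00017, adjusted p = 0.00331), 0.668 without the 2 farthest pairs, and 0.816 and 0.844 within the sets. Here 350 relations of a gene to a marker list were computed, and 1e-05 is the smallest p the permutations can give. The part of B cells in the fall of Marco and Timd4 was not tested. The log2 ratio of 3′ to 5′ Gapdh signal, a sign of RNA quality, was also higher in tumor-bearing spleens by 0.12 ± 0.05 over all 25 pairs (permutation p = 0.0131, adjusted p = 0.0436), and its part in the result was not tested.

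**Figure D3:**
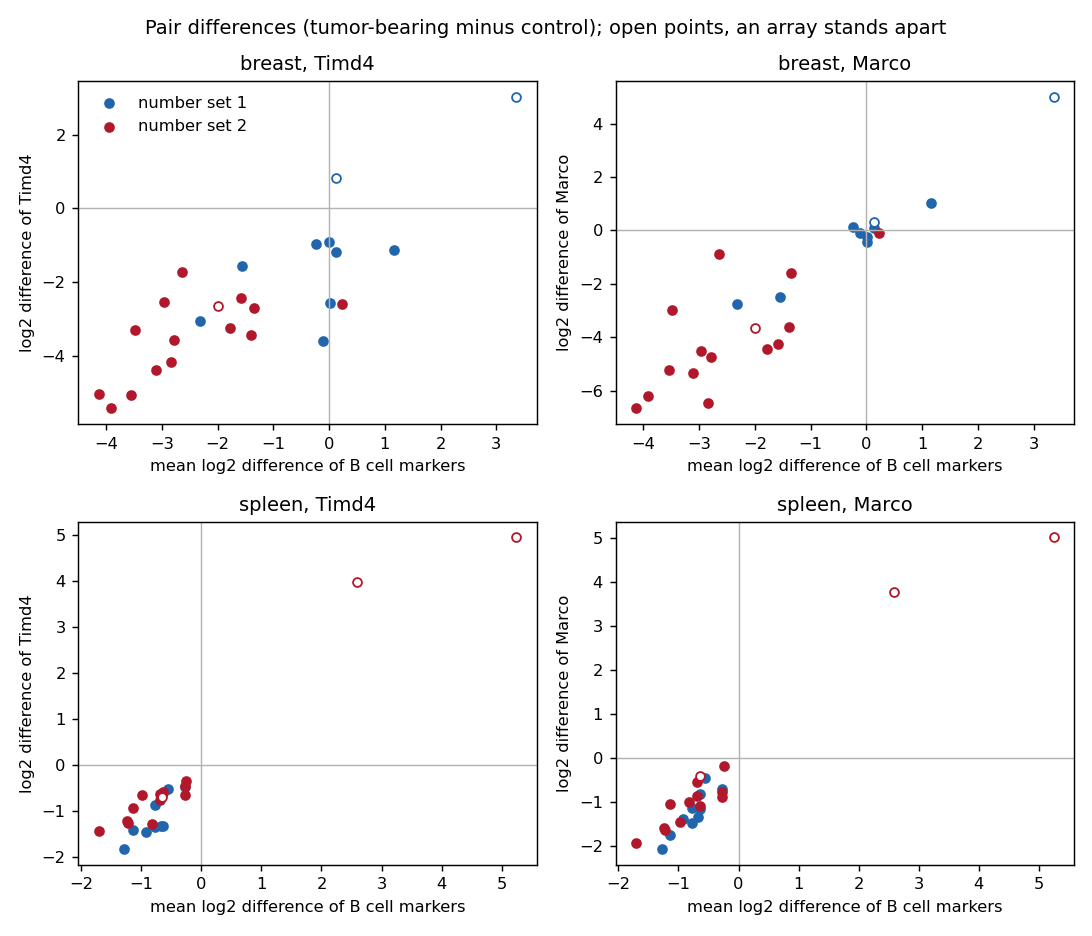
Log2 difference of Timd4 or Marco in each pair (vertical axis) against the mean log2 difference of 5 B cell markers (horizontal axis) in breast and spleen, coloured by the 2 sets of sample numbers. Points climb from lower left to upper right in all 4 panels; open points are pairs with an array that stands apart, and 2 of the 3 in spleen lie at the upper right.

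Wider lists of macrophage genes moved in both directions in spleen. Of all genes 28.9% rose and 26.4% fell without the 3 pairs, and 22.4% and 18.3% over all 25. Of 8 measured genes of red pulp and marginal zone macrophages, 6 fell and 1 rose without the 3 pairs, with a median change of -0.26 beside 0.01 over all genes. The iron exporter Slc40a1 fell by 0.32 ± 0.03 (adjusted p = 1.17e-08), while the biliverdin reductase Blvrb rose by 0.81 ± 0.11 (adjusted p = 2.55e-07). Over all 25 pairs only these 2 passed, 1 in each direction. Among 18 general phagocyte genes 7 rose and 8 fell (6 and 2 over all 25 pairs); the endotoxin co-receptor Cd14 rose by 1.01 ± 0.09 and the growth factor receptor Csf1r fell by 0.32 ± 0.04. The regulator Nr1h3, which encodes the liver X receptor alpha, fell, as did the growth factor Csf1, with changes of -0.73 ± 0.07 and -0.55 ± 0.04. Of 14 macrophage growth factors and transcription factors 5 rose and 6 fell (4 and 6 over all 25). Of 10 genes of haemoglobin and haem clearance 7 rose and 2 fell (6 and 1 over all 25). Of 15 other scavenger and lectin receptors 7 rose and 4 fell (5 and 0 over all 25).

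In liver those of the 10 genes that passed the test were all higher in tumor-bearing mice. Over all 25 pairs Vsig4, Msr1 and Cd163 rose and none fell, against 7.89% of all genes that rose and 2.28% that fell (10.2% in either direction). Without the 5 pairs of arrays that stand apart Clec4f, Cd5l and Mrc1 rose as well, so that 6 of 10 rose and none fell, beside 18.6% and 18.9% of all genes (37.5% in either direction). The median change of the 10 was 0.31 there, beside -0.00 over all genes.

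Among the Kupffer cell genes, the complement receptor Vsig4 ranged from 10.93 to 11.99 (median 11.44) in the 20 controls and from 11.73 to 12.26 (median 11.89) in tumor-bearing livers. The groups overlapped, with 6 of 20 tumor-bearing livers above the highest control. It rose by 0.47 ± 0.06 (1.38-fold, limma adjusted p = 1.03e-06, higher in 19 of 20), and by 0.63 ± 0.19 over all 25 pairs (adjusted p = 0.0343).

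The lectin Clec4f ranged from 10.64 to 11.72 (median 11.23) in controls and from 11.21 to 11.83 (median 11.51) in tumor-bearing livers. Most values overlapped, and the tumor-bearing livers lacked the low values of the controls. It rose by 0.31 ± 0.07 (adjusted p = 0.0008, higher in 17 of 20); over all 25 pairs the change was 0.46 ± 0.22 (adjusted p = 0.23). Cd5l overlapped in the same way (10.61 to 11.89 and 11.49 to 11.95) and rose by 0.35 ± 0.08 (adjusted p = 0.00138), against 0.51 ± 0.18 over all 25 (adjusted p = 0.0717).

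Msr1 separated the groups best among the 10. Its controls spanned 7.94 to 8.78 (median 8.44) and the tumor-bearing livers 8.74 to 9.52 (median 9.18), 19 of 20 of them above the highest control. The scavenger receptor rose by 0.72 ± 0.07 (1.64-fold, adjusted p = 5.76e-08, 20 of 20 pairs) and by 0.83 ± 0.13 over all 25 (adjusted p = 5.18e-05, 25 of 25 pairs). All 4 of its probe sets rose in liver, by 0.46 to 0.83 over all 25 pairs.

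Cd163 ranged from 6.89 to 8.38 (median 7.43) in controls and 7.17 to 8.61 (median 8.03) in tumor-bearing livers. It was higher in 19 of 20 pairs, by 0.59 ± 0.08 (1.5-fold, adjusted p = 4.69e-06), with 5 tumor-bearing livers above every control. The mannose receptor Mrc1 rose by 0.14 ± 0.05 (adjusted p = 0.0295), against 0.26 ± 0.13 over all 25 pairs (adjusted p = 0.248). Timd4, Marco, Spic and Adgre1, the genes that were lower in spleen, had changes of 0.18 ± 0.10, 0.30 ± 0.18, 0.06 ± 0.06 and 0.11 ± 0.09 in liver, none past the test.

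**Figure D4:**
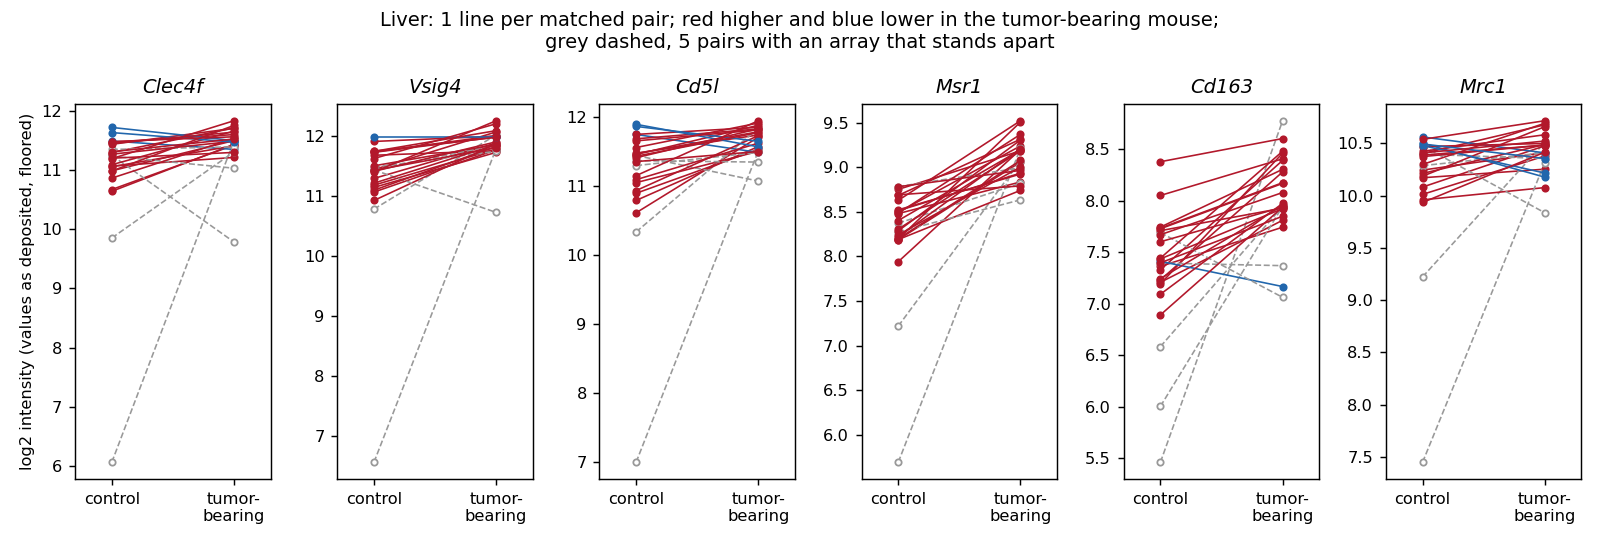
Log2 intensity of 6 macrophage genes in liver, with 1 line for each of the 25 matched pairs from control to tumor-bearing mouse. Red lines climb in 20 of 20 retained pairs for Msr1 and 19 of 20 for Vsig4 and Cd163; the dashed lines are the 5 pairs with an array that stands apart, among them 1 control liver near 6 for Clec4f.

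The control liver array of pair 9 stood farthest from its group, with a median correlation of 0.336, and its pair gave differences of 5.43 for Clec4f and 5.22 for Vsig4. In the set of 10 numbers with this pair, none of the 10 genes passed the test; without the arrays that stand apart, Vsig4 rose there by 0.59, Msr1 by 0.69, Cd163 by 0.74 and Clec4f by 0.40. In the other set without such arrays the changes of these 4 were 0.40, 0.73, 0.51 and 0.27, and all passed. Cd5l, also without such arrays, passed in that set (0.27, adjusted p = 0.0292) but not in the set of 10 (0.48, adjusted p = 0.0546). Mrc1 passed in neither, at 0.14 (adjusted p = 0.125) and 0.15 (adjusted p = 0.259). The share of all genes called in either set is not given here, so these counts have no background beside them.

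Cell markers moved in liver as well. Of all genes 7.89% rose and 2.28% fell over all 25 pairs, and 18.6% and 18.9% without the 5 pairs. With all 25 pairs neutrophil markers rose in 12 of 13, endothelial and sinusoid markers in 7 of 12 and monocyte markers in 2 of 6. Without the 5 pairs neutrophil markers rose in 13 of 13 (summed intensity 760 to 1636 in controls and 6231 to 49715 in tumor-bearing livers), endothelial and sinusoid markers in 10 of 12 (7983 to 10553 and 10129 to 17407), and monocyte markers in 4 of 6 (745 to 1310 and 1185 to 2491). B and T cell markers did not pass in any gene in either fit. None of the measured markers was at the floor in all liver arrays. Over the 20 pairs the difference of Vsig4 had an r of -0.03 with the endothelial mean (permutation p = 0.91, adjusted p = 0.974; rho = -0.06, p = 0.812, adjusted p = 0.911; 0.141 without the 2 farthest pairs, 0.298 and -0.07 within the sets). For Msr1 and the neutrophil mean r was 0.26 (permutation p = 0.269, adjusted p = 0.501; rho = 0.302, p = 0.196, adjusted p = 0.426; 0.393 without the 2 farthest pairs, 0.647 and 0.124 within the sets). These are 2 of the 70 relations of a gene to a marker list in liver. Of the 70, 6 positive and 2 negative ones passed in both r and rho without the 5 pairs. Over all 25 pairs 3 positive and 8 negative ones passed. Neither of the 2 relations given above passed without the 5 pairs, and those that did are not named here. The 2 therefore do not stand for the rest. The parts of these cells in the liver changes were not tested beyond these relations. The log2 Gapdh 3′ to 5′ ratio differed by -0.05 ± 0.04 between the groups of livers (permutation p = 0.272, adjusted p = 0.388).

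The wider liver lists held phagocyte genes and others, among them Stab2, which is also one of the endothelial and sinusoid markers above. They are set beside 18.6% of all genes that rose and 18.9% that fell without the 5 pairs (7.89% and 2.28% over all 25). Without the 5 pairs, 14 of 18 general phagocyte genes rose and none fell (7 and none over all 25), among them Cd14 by 0.75 ± 0.08, the phagocyte checkpoint receptor Sirpa by 0.52 ± 0.07 and the lysosomal protease Lgmn by 0.69 ± 0.05. All 7 complement uptake genes rose (2 over all 25), with the integrin chain Itgam at 1.00 ± 0.13. Of 15 other scavenger and lectin receptors 8 rose and 1 fell (5 and none over all 25), with Scara5, a ferritin receptor, at 2.15 ± 0.23 and the sinusoidal receptor Stab2 at 0.86 ± 0.07. Of 14 dead cell uptake genes 9 rose and 2 fell (6 and 1 over all 25), led by the bridging ligand Gas6 at 1.63 ± 0.12. Of 10 other Kupffer cell genes 5 rose and 4 fell (3 and 1 over all 25). There the folate receptor Folr2 rose by 0.54 ± 0.07 and the transcriptional regulator Id3 fell by 0.83 ± 0.11.

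The change in liver and the change in spleen were compared in the same mice, with pairs linked across tissues by a reading of the sample numbers that the labels do not state. Over all 25 linked pairs Msr1 alone differed, by 0.49 ± 0.14 (limma adjusted p = 0.011), beside 19.6% of all genes called (10.4% higher in liver and 9.16% lower). In the 18 linked pairs free of arrays that stand apart all 10 differed, beside 50.2% of all genes (24% higher in liver and 26.2% lower). The change was higher in liver by 1.35 ± 0.21 for Marco (adjusted p = 1.2e-05), 1.12 ± 0.11 for Timd4 (adjusted p = 2.12e-08), 0.52 ± 0.17 for Vsig4 (adjusted p = 0.013) and 0.50 ± 0.09 for Spic (adjusted p = 3.99e-05). Cd5l was the exception among the 10, with a larger change in spleen (-0.23 ± 0.08, adjusted p = 0.0265). Over all 25 linked pairs the liver change was the higher of the pair in 22 for Timd4, 20 for Marco and 7 for Cd5l.

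One fit took the 4 tissues outside the breast together, and in it the change of 5 genes differed by tissue: Msr1 (adjusted p = 3.92e-06), Cd5l (2.07e-05), Cd163 (0.00707), Vsig4 (0.00723) and Timd4 (0.0124). Of all genes 30.2% were called. This fit assumes the same spread in all 4 tissues, an assumption that was not tested. Without arrays that stand apart (14 linked pairs) 39.9% of all genes were called, and Vsig4 had an adjusted p of 0.0592 while Spic had 0.00149 and Clec4f 0.0423.

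In breast, where the tumor was part of the tumor-bearing sample, Timd4 and Marco had the widest differences of the series for these genes. Over all 25 pairs Vsig4, Msr1 and Adgre1 rose and Timd4, Marco, Cd163, Mrc1 and Spic fell, against 30% of all genes that rose and 32.3% that fell (62.3% in either direction). Without 3 pairs Msr1 rose and the same 5 fell, beside 31.8% and 35.8%. With 67.5% of all genes called there, 6 of 10 is near the background.

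Timd4 ranged from 6.21 to 10.54 (median 8.67) in the 22 control breasts and from 4.49 to 7.55 (median 5.29) in the tumor-bearing ones. In 16 of 22 the tumor-bearing value lay under the lowest control, and it was lower in 22 of 22 pairs. It fell by 2.93 ± 0.28 (7.62-fold lower, adjusted p = 1.4e-09), and the change over all 25 was -2.53 ± 0.36 (adjusted p = 7.39e-07), lower in 23 of 25 pairs.

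Marco covered 3.74 to 10.62 (median 8.22) in controls and 3.67 to 7.29 (median 4.03) in tumor-bearing breasts. The control range reached down to the tumor-bearing values. It fell by 2.81 ± 0.50 (adjusted p = 2.69e-05, lower in 19 of 22) and changed by -2.40 ± 0.54 over all 25 (adjusted p = 0.000386). Spic had medians of 5.49 and 4.81 and fell by 0.67 ± 0.12 (adjusted p = 3.54e-05).

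The values of Marco in breast differed between the sets of sample numbers. Among the 15 pairs of the second set it changed by -4.04 (adjusted p = 1e-06), and among the 10 of the first by 0.05 (adjusted p = 0.96). Without arrays that stand apart these were -4.07 and -0.60 (adjusted p = 0.268 for the latter). Spic changed by -0.95 and -0.02 over all pairs of the 2 sets, and Timd4 by -3.48 and -1.11 (adjusted p = 0.142 for the latter). Without such arrays Timd4 fell in both sets, with changes of -3.54 and -1.87. Pair 9 of the first set, whose tumor-bearing array stands apart, gave differences of 3.03 for Timd4 and 5.01 for Marco. The difference between the sets was not tested.

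B cell markers were lower in breast with Timd4 and Marco. They fell in 5 of 5 genes (summed intensity 148 to 5521 in controls and 123 to 967 in tumor-bearing breasts without the 3 pairs), T cell markers in 6 of 6 (454 to 5331 and 327 to 1098), and dendritic cell markers in 7 of 8. None of these was at the floor in all breast arrays. Without the 3 pairs 35.8% of all genes fell and 31.8% rose. Because the 2 sets of numbers differ in both quantities, the relation of Marco to the B cell mean is read within them, where r was 0.968 in 8 pairs and 0.708 in 14. Over the 22 pairs together r was 0.875 (permutation p = 1e-05, adjusted p = 0.000292; rho = 0.883, p = 1e-05, adjusted p = 0.0005), and 0.836 without the 2 farthest pairs. For Timd4 the within-set r was 0.402 and 0.645. The log2 ratio of 3′ to 5′ Gapdh signal also differed, with means of 0.03 in tumor-bearing and 0.79 in control breasts (difference -0.76 ± 0.17, permutation p = 8e-05, adjusted p = 0.0008). Adipocyte markers fell in 4 of 4 genes without the 3 pairs, with a median change of -4.36 (summed intensity 31611 to 45643 in controls and 1752 to 22585 in tumor-bearing breasts). Epithelial markers rose in 5 of 5, with a median change of 1.87. The parts of lymphoid, adipocyte and epithelial cells and of RNA quality in these changes were not tested.

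Cd163 and Mrc1 both fell in breast. Cd163 ranged from 7.88 to 10.21 (median 9.04) in controls and from 6.27 to 9.35 (median 7.56) in tumor-bearing breasts, 13 of 22 below the lowest control. It fell by 1.39 ± 0.23 (2.61-fold lower, adjusted p = 9.97e-06), and in both sets of numbers (-1.44 and -1.36). Mrc1 had medians of 10.30 and 9.47 and fell by 0.72 ± 0.17 (adjusted p = 0.000763), but in the first set of numbers it did not pass (-0.51 without arrays that stand apart, adjusted p = 0.207, and -0.32 with them, adjusted p = 0.381). Their pair differences correlated at r = 0.907 (permutation p = 1e-05, adjusted p = 7.76e-05; rho = 0.911, p = 1e-05, adjusted p = 0.000102; r = 0.87 without the 2 farthest pairs, 0.953 and 0.916 within the sets). Mrc1 also followed the endothelial and sinusoid markers (r = 0.886, permutation p = 1e-05, adjusted p = 0.000292; rho = 0.908, p = 1e-05, adjusted p = 0.0005; 0.872 without the 2 farthest pairs, 0.922 and 0.895 within the sets). Of those markers 9 of 12 fell and 2 rose, beside 35.8% and 31.8% of all genes. Their part in the change of Mrc1 was not tested. Nor was the part of the lower adipocyte and higher epithelial markers in the falls of Cd163 and Mrc1.

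Msr1 was the gene of the 10 that rose in breast in both fits. Its controls ranged from 6.66 to 7.67 (median 7.08) and its tumor-bearing values from 6.98 to 8.50 (median 7.65), with 11 of 22 above the highest control. It rose by 0.59 ± 0.08 (1.5-fold, adjusted p = 5.72e-07, higher in 21 of 22). By probe set, 3 of the 4 Msr1 probe sets rose, and the dimmest, at 0.16 ± 0.10, did not pass (adjusted p = 0.145 over all probe sets). Vsig4 and Adgre1 passed over all 25 pairs, at 0.43 ± 0.18 (adjusted p = 0.0431) and 0.20 ± 0.09 (adjusted p = 0.0487), but not without the 3 pairs, at 0.39 and 0.18 (adjusted p = 0.0966 and 0.0625).

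Beyond these genes the breast lists moved in both directions, as did all genes. Of all genes 31.8% rose and 35.8% fell without the 3 pairs, and 30% and 32.3% over all 25. Of 18 general phagocyte genes 13 rose and 3 fell without the 3 pairs (13 and 2 over all 25), with Cd14 at 1.93 ± 0.12 and the Fc receptor Fcgr1 at 1.21 ± 0.14. Of 13 genes of alternative activation and tumor macrophages 5 rose and 6 fell (5 and 5 over all 25). Trem2, a lipid-sensing receptor, rose by 1.02 ± 0.09, whereas Retnla and Mgl2, a secreted protein and a lectin of alternatively activated macrophages, fell, with changes of -2.74 ± 0.28 and -1.35 ± 0.18. Of 10 other Kupffer cell genes 2 rose and 6 fell, with Nr1h3 at -2.16 ± 0.10. Cd209b, the lectin SIGN-R1 of marginal zone macrophages, fell by 2.77 ± 0.34. The parts of adipocyte and epithelial cells in the changes of these lists were not tested.

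Among blood cells Timd4 was the gene of the 10 that passed. It ranged from 5.20 to 9.91 (median 7.79) in controls and from 4.44 to 9.77 (median 6.52) in tumor-bearing mice. The ranges overlapped almost fully. It fell by 0.81 ± 0.25 over all 25 pairs (limma adjusted p = 0.0291, lower in 20 of 25), and the change without 3 pairs was -0.81 ± 0.27 (adjusted p = 0.0312). Of all genes 4.27% fell and 8.66% rose over all 25 pairs (12.9% in either direction), and 13.2% fell and 9.99% rose without the 3 (23.2% in either direction). Without the pair as a block its adjusted p was 0.21. The set of 15 numbers gave -1.12 (adjusted p = 0.00461) and the set of 10 gave -0.35 (adjusted p = 0.979).

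Cd5l and Vsig4 in blood changed by -0.66 ± 0.23 (adjusted p = 0.0637) and -0.62 ± 0.28 (adjusted p = 0.182), and the other 7 by -0.24 to 0.01. B cell markers fell in 4 of 5 (summed intensity 290 to 6537 in controls and 203 to 4097 in tumor-bearing mice over all 25 pairs) and neutrophil markers rose in 9 of 13 (950 to 11221 and 17176 to 80318). Their part in the change of Timd4 was not tested. General phagocyte genes rose in 8 of 18 and none fell over all 25 pairs, with Sirpa at 1.24 ± 0.14, and 8 rose and 2 fell without the 3 pairs. Slc40a1 rose by 2.83 ± 0.23.

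In thymus none of the 10 passed. Of all genes 0.011% did, and 0.0824% without 3 pairs. The largest changes of the 10 were those of Vsig4 (0.53 ± 0.28), Cd163 (0.50 ± 0.16) and Mrc1 (0.42 ± 0.15), with adjusted p of 0.995, 0.905 and 0.995. The unadjusted p was 0.00484 for Cd163, 0.0101 for Mrc1 and 0.0226 for Adgre1, and above 0.05 for the other 7. Over all 25 pairs Marco spread from 5.25 to 10.87 among controls and from 5.36 to 11.49 among tumor-bearing mice. The 10.87 came from the control array of pair 7, which stands apart. Without the 3 pairs the highest control was 9.93.

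Within a tissue, the genes differed in how far they moved together from pair to pair. By the count of correlated gene pairs liver came first, but the same count among pairs of all genes was not made. Of 45 gene pairs there, 27 were positively correlated after adjustment of both r and rho over 225 relations, against 21 in blood, 12 in thymus, 11 in breast and 6 in spleen, all without arrays that stand apart. In blood 3 more were negative. With all 25 pairs the counts were 37 in liver, 21 in blood with 1 more negative, 13 in breast, 12 in spleen and 9 in thymus. The median r was 0.616 in liver and 0.166 in spleen, and 0.744 and 0.495 over all 25 pairs. For comparison, each gene's median r with all genes above the median level of the liver was taken. Over all 25 pairs it ran from 0.37 for Marco to 0.83 for Mrc1, so the 0.744 does not set these genes apart. Without arrays that stand apart it ran from -0.11 for Adgre1 to 0.03 for Spic, below the 0.616.

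In liver Cd5l followed Adgre1 (r = 0.952, permutation p = 1e-05, adjusted p = 7.76e-05; rho = 0.941, p = 1e-05, adjusted p = 0.000102; 20 pairs) and Clec4f (r = 0.925, rho = 0.89, with the same p-values). Without the 2 farthest pairs these r were 0.929 and 0.913, and within the sets of numbers 0.977 and 0.932 for the former. Timd4, whose mean change in liver did not pass, followed Cd5l as closely (r = 0.933, rho = 0.938, with the same p-values; 0.898 without the 2 farthest pairs, 0.938 and 0.931 within the sets).

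In spleen Timd4 followed Marco (r = 0.849, permutation p = 1e-05, adjusted p = 7.76e-05; rho = 0.837, p = 1e-05, adjusted p = 0.000102; 22 pairs; 0.786 without the 2 farthest, 0.938 and 0.782 within the sets), and Cd5l followed Adgre1 (r = 0.841, rho = 0.701 with p = 0.00032 and adjusted p = 0.0018; 0.641 without the 2 farthest). In breast Timd4 and Marco had r = 0.377 in the 8 pairs of the first set and 0.783 in the 14 of the second. In blood Msr1 followed Adgre1 (r = 0.939, permutation p = 1e-05, adjusted p = 7.76e-05; rho = 0.911, p = 1e-05, adjusted p = 0.000102; 0.911 without the 2 farthest, 0.955 and 0.912 within the sets).

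**Figure D5:**
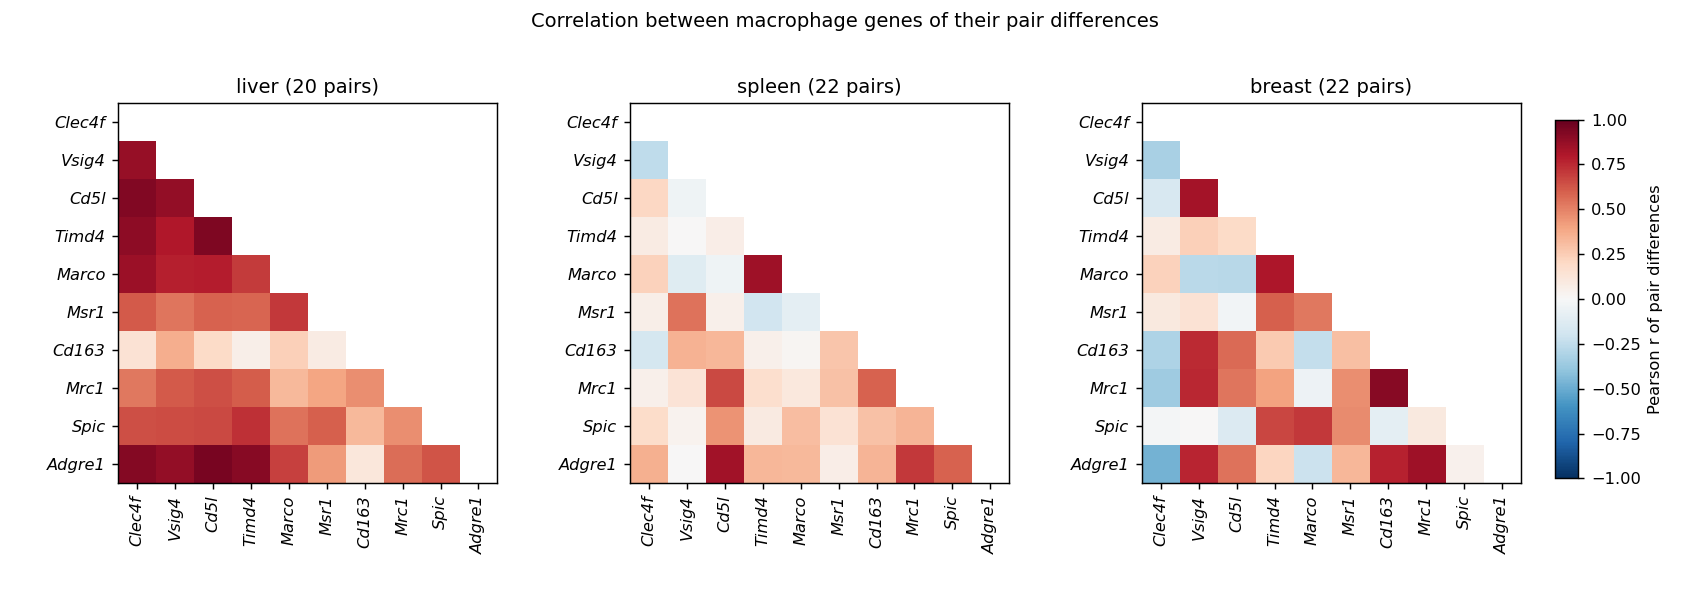
Pearson r between the pair differences of each 2 macrophage genes (rows and columns) in liver, spleen and breast, without pairs that hold an array standing apart; the colour runs from -1 (blue) to 1 (red). Liver shows a red block from Clec4f to Marco together with Adgre1, and in spleen Timd4 with Marco and Cd5l with Adgre1 stand out.

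Each gene was also set against all genes above the median level of the tissue by the correlation of their pair differences, and the nearest are named as a description. In liver over all 25 pairs, Clec4f was most like C1qb and C1qa, chains of complement C1q (r = 0.99 and 0.986), and Cd5l was most like C1qa and C1qc (r = 0.992 and 0.991). Vsig4 was most like H2-K1, a class I histocompatibility gene, and Csf1r (r = 0.99 and 0.988). These values rest in part on the pairs farthest out. The median r of Clec4f with all genes was 0.81 over all 25 pairs and -0.08 without the 5, and without the 2 farthest pairs its r with C1qb was 0.967 and that of Vsig4 with H2-K1 was 0.876. Without the 5 pairs, the nearest gene was again C1qb for Clec4f (r = 0.962), and it was Csf1r for Vsig4 (r = 0.951) and the lysosomal protease Ctss for Cd5l (r = 0.977).

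In spleen over all 25 pairs, Timd4 was most like Plekha2 and the class II gene H2-Ob (r = 0.988 and 0.987), and the gene nearest to Marco after E330020D12Rik was Timd4 (r = 0.987 for both). Without the 2 farthest pairs these r were 0.857 and 0.872 for Timd4 and 0.851 and 0.841 for Marco. Cd5l was most like Hs6st2 and Slc11a1 (r = 0.9 for both), but without the 2 farthest pairs these r were 0.195 and 0.234. Without the 3 pairs of arrays that stand apart, the nearest genes were Pdcd4 for Timd4 (r = 0.916), the acid phosphatase Acp5 for Marco (r = 0.901), Fbxo8 for Spic (r = 0.878) and the complement component C6 for Cd5l (r = 0.869). All these genes share the arrays and the pairs, so the values describe likeness in these mice.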

How the data were processed

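RNA of 5 tissues was measured on 250 arrays, 25 tumor-bearing and 25 control mice per tissue. The authors deposited 1 table of linear intensity per probe set (5.17 to 47198); how the scans were summarised and normalized is not given in the sources used here. Array medians differ between tissues, so each tissue was fitted by itself. Of 45101 probe sets 34958 had 1 gene symbol in the platform annotation, 932 had several and 9211 had none; 34754 were updated by Entrez number and 204 kept. Intensities were raised to a floor at the 5th percentile of all values (11.3) and taken to log2, and the probe set with the highest mean stood for each of 18193 genes. The floor and the number of arrays limit precision.

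The change was tested with limma 3.58.1 (R 4.3.3), blocking on the matched pair because the labels match the mice, and Benjamini-Hochberg adjustment over all genes; the code was tested on simulated data. Deviations of the 2 mice of a pair had a median correlation of 0.31 in liver, 0.25 in thymus, 0.22 in blood, 0.15 in spleen and 0.08 in breast. Correlations used 100000 permutations, two-sided (Python 3.11.15, numpy 2.4.6, scipy 1.17.1, pandas 2.3.3, matplotlib 3.10.9). No 2 arrays were identical (highest correlation 0.997).

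The genes and the lists (182 listed genes, 167 measured) were chosen with earlier results of these data known. Named beside the 10 are, per list, tissue and direction, up to 3 called genes (2 for cell markers) with the smallest adjusted p over 25 pairs, and the 2 genes most like each in liver and spleen. The nearest genes without arrays that stand apart, the relations to cell markers, the split of each number set without such arrays and the leaving out of arrays nearer another tissue were added after seeing the data. Promoter windows came from RefSeq; 8 of 10 genes matched.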

Additional observations from a re-analysis of the deposited data

Results flagged for a closer look

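The change between tumor-bearing and control mice differed among liver, spleen, blood and thymus for 5 of the 10 genes in the fit over all linked pairs (limma adjusted p = 0.00723 for Vsig4, 2.07e-05 for Cd5l, 0.0124 for Timd4, 3.92e-06 for Msr1 and 0.00707 for Cd163), beside 30.2% of all genes. Without arrays that stand apart 39.9% of all genes were called and Vsig4 was not (adjusted p = 0.0592). The change of Msr1 was larger in liver than in spleen by 0.49 on the log2 scale, and higher in liver in 19 of 25 linked pairs. The linking of pairs across tissues is a reading of the sample numbers that the labels do not state.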

How the results depend on the processing

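The counts over all 25 pairs were 3 genes that rose and 5 that fell in breast, 3 that rose in liver, 3 that rose in spleen, 1 that fell in blood, 5 that differed among the 4 tissues and 1 between liver and spleen. Causes of the shifts below were not tested, beyond the arrays left out. Without a floor, and without probe sets of the cross-hybridising kinds (which drops Spic), no count moved by over 1.5 times and no value changed sign. Without the replicate block 0 fell in blood and 1 rose in breast. With the floor at the 20th percentile 1 rose in breast. When genes below the median level were dropped, 2 fell in blood, 2 fell in breast, 1 rose in spleen, 1 differed among the 4 tissues and 0 between liver and spleen. Quantile normalization gave 2 that fell in blood, 5 that rose in liver and 2 that differed between liver and spleen, and turned Cd163 (0.0074) and Spic (-0.021) in blood and Clec4f (0.035) in breast. With the probe set of highest variance Spic turned in blood (-0.097) and liver (-0.077), and 0 differed between liver and spleen.

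Without arrays that stand apart 1 rose in breast, 6 rose in liver, 4 fell in spleen and 10 differed between liver and spleen, and Clec4f in blood (0.065), Mrc1 (-0.0022) and Vsig4 (-0.039) in spleen turned. Without arrays nearer another tissue 4 fell in spleen, 8 differed among the 4 tissues and 7 between liver and spleen, and Vsig4 in spleen turned (-0.042).

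The share of all genes called within a number set is not given here, so the counts for the 2 sets have no background beside them. In number set 1 alone 0 fell in blood, 1 fell and 1 rose in breast, 0 rose in liver, 4 fell in spleen, 0 differed among the 4 tissues and 2 between liver and spleen. There Adgre1 (0.20), Cd163 (0.076), Clec4f (0.11), Mrc1 (0.21), Msr1 (0.058) and Spic (-0.12) turned in blood, Marco (0.051) in breast, Mrc1 (-0.050) and Vsig4 (-0.017) in spleen, Cd5l (-0.055), Clec4f (0.084), Marco (-0.43) and Timd4 (-0.32) in thymus, and Cd5l (0.30) between liver and spleen. Without its arrays that stand apart 0 fell in blood, 2 fell and 1 rose in breast, 0 differed among the 4 tissues and 6 between liver and spleen; Adgre1 (0.15), Cd163 (0.014), Clec4f (0.24), Marco (0.031), Mrc1 (0.12), Msr1 (0.049) and Spic (-0.081) turned in blood, and Clec4f (0.26), Marco (-0.71) and Timd4 (-0.74) in thymus.

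In number set 2 alone 2 fell in blood, 1 rose in breast, 5 rose in liver and 8 differed among the 4 tissues. There Adgre1 (-0.055), Cd163 (-0.097), Mrc1 (-0.25) and Spic (-0.10) turned between liver and spleen, Adgre1 (-0.0067) and Marco (-0.052) in liver, Adgre1 (0.049) and Spic (0.10) in spleen, and Spic (0.15) in thymus. Without its arrays that stand apart 1 rose in breast, 5 rose in liver, 4 fell in spleen, 8 differed among the 4 tissues and 5 between liver and spleen, and Clec4f (-0.0078) and Vsig4 (-0.057) turned in spleen. Genes near the background, such as Cd163 in blood, give values set by the floor.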
